A study of Rattus norvegicus with 9 samples.

Results

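Interleukins and their receptors are the genes described here. They were chosen by name: all probes other than control spots whose gene name on the array begins with Il and a digit, leaving out Il1a, Il1b, Il1rn, Il1r1, Il1r2 and Il18. That gave 64 of 41012 probes, for 55 genes: 32 receptor chains, 22 secreted cytokines (ligands) and 1 soluble binding protein, Il18bp. Receptors were classed by their names, so Il22ra2 is counted with them although it is itself soluble. The cells were blood mononuclear cells (PBMC), mainly lymphocytes and monocytes, isolated on a Ficoll gradient. The cafeteria group was 5 male Wistar rats that had fat-rich, hypercaloric cafeteria food as well as chow for 4 months, starting at 2 months old; this feeding is used to induce obesity. The control group was 4 male Wistar rats of the same age kept on standard chow, after the submitters left out 1 control animal for low RNA. All animals were bled from the saphenous vein at 6 months while fed, and each gave 1 array. The animal's RNA carried the dye Cy5, and a pool of all samples on the same array carried Cy3, so a value below is a log2 ratio of the animal to that pool.

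Interleukins are secreted signals between leukocytes, made in small amounts and often only after a cell is activated. Their receptors are built from a private chain that binds the ligand and a chain that several receptors share, such as the common gamma chain Il2rg, the gp130 protein Il6st or the accessory protein Il1rap. Most of these receptors signal through Janus kinases and STAT proteins, and those of the interleukin 1 family through Myd88 and Irak kinases.

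Receptor genes were detected more often than ligand genes, and no interleukin or receptor gene passed the test for a difference between the diets. A probe was counted as detected on an array where the scanner software marked its Cy5 signal well above background, and a gene as detected where this held for 1 of its probes on 4 arrays or more, which is the size of the control group. By this measure 23 of 32 receptor genes (71.9%) and 10 of 22 ligand genes (45.5%) were detected. The gap depended on the flag: by the software's significance flag the counts were 25 of 32 and 16 of 22, which lie closer together. Over the whole array 62.9% of probes passed the same filter. The number of genes seen on 1 array ran from 22 to 23 receptors on cafeteria arrays and from 22 to 24 on control arrays. For ligands it ran from 7 to 11 on cafeteria arrays and from 7 to 12 on control arrays, so the groups overlapped in both classes.

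Signal was well above background for 58.7% to 66.6% of probes per array. Markers of the expected cells were present: 9 of 9 measured T cell markers, 6 of 6 B cell markers, 7 of 7 markers of cytotoxic T and NK cells and 6 of 7 monocyte markers passed the filter, the exception being Cd163. Markers of platelets (5 of 5 measured), neutrophils (5 of 7) and erythroid cells (4 of 4) did so too. The 4 erythroid markers Hbb, Alas2, Slc4a1 and Ahsp each had an unadjusted limma p under 0.05 and were higher in cafeteria animals (median log2 fold change 0.65). Of all probes, 1.9% were higher at that p. The limma adjusted p of the 4 markers ran from 0.392 to 0.794. Their mean log2 ratio did not overlap between the groups, with -0.71 to -0.07 on cafeteria arrays and -1.31 to -0.75 on control arrays. Of all probes taken singly, 2.01% did not overlap, in either direction. All 6 B cell markers had an estimate above 0 (median 0.26) and all 5 platelet markers one below 0 (median -0.48), with 0 of either at an unadjusted p under 0.05 and groups whose mean levels overlapped. The part of these cells in the results below was not tested. Slides 3 and 5 each held 1 array of either group, and the differences within them are given for most genes named with values on each array. The other 5 slides held 1 array each. A fit with slide as a block therefore takes its difference between the diets from slides 3 and 5 alone. The labels do not say whether RNA was extracted or labelled in batches.

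Among receptors, 21 genes were detected on 9 of 9 arrays. These were the chains Il2ra, Il2rb, Il2rg, Il4ra, Il7r, Il9r, Il13ra1 and Il21r of the common gamma chain group and its relatives; Il6ra, Il6st, Il11ra1, Il12rb2 and Il27ra of the gp130 and Il12 group; Il3ra; Il10ra; Il22ra2, a soluble receptor that binds Il22; the Il17 receptor chains Il17r (now Il17ra), Il17rc and Il17re; and Il1rap and Il18rap, accessory chains for Il1 and Il18. Il18r1, which binds Il18, was detected on 8 arrays (5 of 5 cafeteria, 3 of 4 control). Il1rl1, the receptor of Il33, was detected on 5 arrays. Il1rl2, the receptor of the Il36 cytokines, was detected on 1 array, a control. The remaining 8 receptor genes were detected on 0 of 9 arrays: Il5ra, the chain that marks eosinophils and basophils; Il8ra and Il8rb (now Cxcr1 and Cxcr2), chemokine receptors of neutrophils; Il13ra2, a decoy receptor; Il17rb; Il20ra; and the neuronal Il1rapl1 and Il1rapl2.

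Among ligands, 6 genes were detected on 9 of 9 arrays. They were Il2 and Il4, products of activated T cells; Il15, which maintains NK and memory T cells; Il16, a protein of lymphocytes that binds Cd4; Il17b; and Il1f8 (now Il36b). Detection was partial for Il12a, a chain of interleukin 12, on 8 arrays (4 of 5 cafeteria, 4 of 4 control), and for Il24 on 7 arrays (4 of 5 cafeteria, 3 of 4 control). Il6, a cytokine of the acute phase response, was detected on 5 arrays (3 of 5 cafeteria, 2 of 4 control), and Il10, an inhibitory cytokine, on 4 arrays (3 of 5 cafeteria, 1 of 4 control). Il7, which sustains naive T cells and is made mainly by stromal cells, was detected on 3 arrays (0 of 5 cafeteria, 3 of 4 control). Il13 was detected on 2 arrays (1 of each group) and Il3 on 1 array (0 of 5 cafeteria, 1 of 4 control). The other 9 ligand genes were detected on 0 of 9 arrays: Il5, Il9, Il11, Il12b, Il21, Il23a, Il1f5 (now Il36rn), Il1f6 (now Il36a) and Il1f10. A probe without detection gives only an upper bound, set by the array's background, and does not show that the gene is silent.

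**Figure D1:**
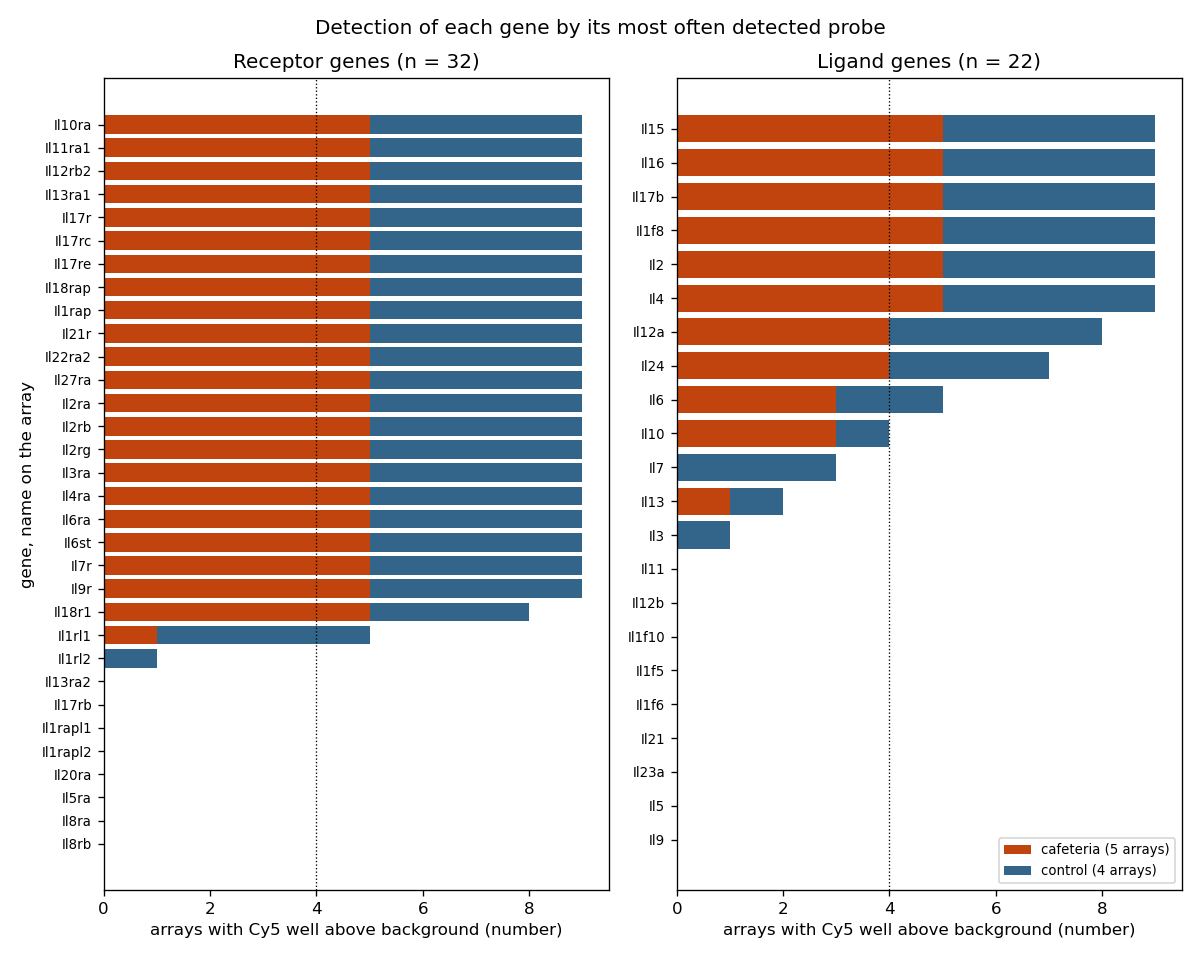
Number of arrays (x axis, of 9) on which Cy5 was well above background for each receptor gene (left) and ligand gene (right), by its most often detected probe. Orange bars count cafeteria arrays and blue bars control arrays, the dotted line marks the minimum of 4 arrays, and a gene without a bar was detected on 0 arrays; 23 of 32 receptor genes and 10 of 22 ligand genes reach the line.

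The contrast between receptors and ligands differed between the cytokine groups. In the common gamma chain group, 8 of 9 receptor genes and 3 of 7 ligand genes were detected. In the gp130 and Il12 group the counts were 5 of 5 receptor genes and 2 of 5 ligand genes, and in the Il1 and Il18 group they were 4 of 7 receptor genes and 1 of 4 ligand genes. Among the beta common chain cytokines, 1 of 2 receptor genes (Il3ra) and 0 of 2 ligand genes were detected. Both other groups that hold both classes ran the other way: the Il10 group with 2 of 3 receptor genes and 2 of 2 ligand genes, and the Il17 group with 3 of 4 receptor genes and 1 of 1 ligand gene. No test was made of these counts, since the probes of 9 arrays are not replicates of a class.

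The pool of all samples, read in the Cy3 channel, gave a second reading of detection. There 21 of 32 receptor genes and 6 of 22 ligand genes were well above background on at least 4 arrays. Il6 was detected in Cy5 on 5 arrays but in the pool on 0, and Il1rl1 likewise on 5 and 0. Ratios of such genes have a reference at background.

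For the difference between the diets, 39 of 64 member probes, of 34 genes, passed the filter and were tested with limma in a fit over all 25808 probes. By limma, 0 of these 39 probes had an adjusted p under 0.05 (lowest 0.652), against 0 of 25808 probes (0%) on the whole array. At an unadjusted p under 0.05 there were 2 of 39 (5.13%), both lower in cafeteria animals, against 5.68% of all probes in either direction, 3.78% lower and 1.9% higher. The share among the members was thus near that of the whole array. Groups that did not overlap were found for 0 of the 39 probes, against 2.01% of all probes. Estimates were above 0 for 22 member probes and below 0 for 17, and above 0 for 52.7% of all probes.

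The medians of both classes lay near 0. With 1 probe a gene, the median log2 fold change of cafeteria over control was 0.0086 over 23 receptor genes (range -0.44 to 0.33) and 0.0074 over 10 ligand genes (range -0.28 to 0.12), beside 0.0078 over all 22078 genes or unnamed transcripts. On the scale used here, the 95% interval of the difference lay within 1.5-fold in both directions for 33 of 39 probes. Those reaching further were Il7r, both probes of Il17r, Il2rb, Il18rap and Il3ra. A change of 1.5-fold is not excluded for these by 9 arrays. Nor is it excluded for all of the 33, since the size of some depended on the scale. With the Cy5 signal alone, Il1rl1 was -1.26 and Il2 was -0.73.

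**Figure D2:**
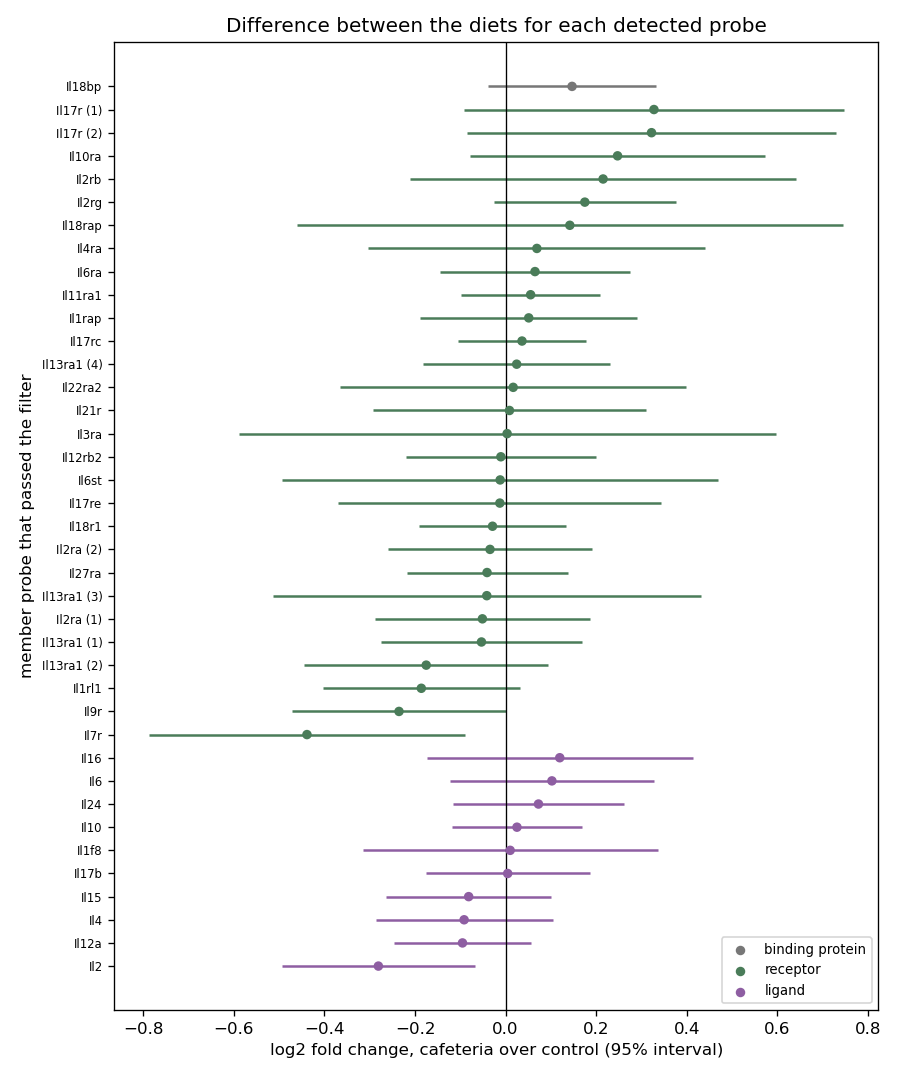
Log2 fold change of cafeteria over control (x axis) with its 95% interval for the 39 member probes that passed the filter, by class; numbers after a gene name tell its probes apart. Of 39 intervals, those of Il7r and Il2 leave out 0, and neither gene passed after adjustment.

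Il7r, the private chain of the interleukin 7 receptor on naive and memory T cells, had the largest estimate among the members (chr2:59108928-59108987 on the minus strand of rn4). Its log2 ratio on the 5 cafeteria arrays 1, 4, 7, 10 and 13 was 0.38, 0.08, -0.11, -0.48 and -0.33, against 0.41, 0.22, 0.49 and 0.26 on control arrays 1, 4, 7 and 13. Of the cafeteria animals, 4 lay below all controls and cafeteria 1 lay among them. The means were -0.09 ± 0.34 in cafeteria animals (SD, n = 5) and 0.35 ± 0.12 in control animals (SD, n = 4), a log2 fold change of -0.44 (SE 0.16, limma unadjusted p = 0.0186, adjusted p = 0.708). The difference was -0.03 within slide 3 and -0.75 within slide 5.

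T cell markers were below the control range on cafeteria 7, 10 and 13, 3 of the 4 arrays on which Il7r was low, and within it on cafeteria 4. The mean log2 ratio of the 9 measured T cell markers was 0.10, -0.03, -0.21, -0.22 and -0.47 on cafeteria arrays 1, 4, 7, 10 and 13, against 0.05, -0.18, 0.01 and 0.12 on control arrays 1, 4, 7 and 13. All 9 had an estimate below 0, with a median of -0.13 and 0 of them at an unadjusted p under 0.05, and their groups overlapped. The summed Cy5 level of the list, in log2 units above the array's 75th percentile, ran from 8.05 to 8.75 in cafeteria animals and from 8.43 to 8.98 in control animals. Across the 9 animals Il7r followed the list mean (Pearson r = 0.80, exact permutation p = 0.0139, adjusted over 4 such relations 0.0277; Spearman rho = 0.80, exact permutation p = 0.0138, adjusted 0.0277). Without cafeteria 10 and 13, the arrays farthest from the median of the list, r was 0.69 over 7 animals. The 4 relations were chosen after the values were seen, which the adjustment does not cover, and they pool both diets. Their p-values describe the relations and give no support. In blood, fewer cells of a type and less RNA per cell cannot be told apart, and the part of T cell number in the Il7r estimate was not tested.

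Il2, the growth factor that activated T cells secrete, was the other member with an unadjusted p under 0.05 (chr2:123655102-123655161, minus strand). Its log2 ratio was 0.19, -0.22, -0.04, -0.18 and 0.05 on cafeteria arrays 1, 4, 7, 10 and 13, against 0.34, 0.16, 0.31 and 0.17 on control arrays 1, 4, 7 and 13. The groups overlapped only through cafeteria 1, which lay above control 4 and control 13. The means were -0.04 ± 0.17 in cafeteria animals (SD, n = 5) and 0.24 ± 0.09 in control animals (SD, n = 4), a log2 fold change of -0.28 (SE 0.10, limma unadjusted p = 0.0147, adjusted p = 0.652). Within slides 3 and 5 the difference was -0.14 and -0.35. The size depended on the scale: it was -0.64 (SE 0.27, limma adjusted p = 0.790) by the software's own log ratio and -0.73 (SE 0.23, limma adjusted p = 0.763) with Cy5 alone. In the other direction it was -0.17 (limma unadjusted p = 0.0810) when the background model was fitted on all spots.

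**Figure D3:**
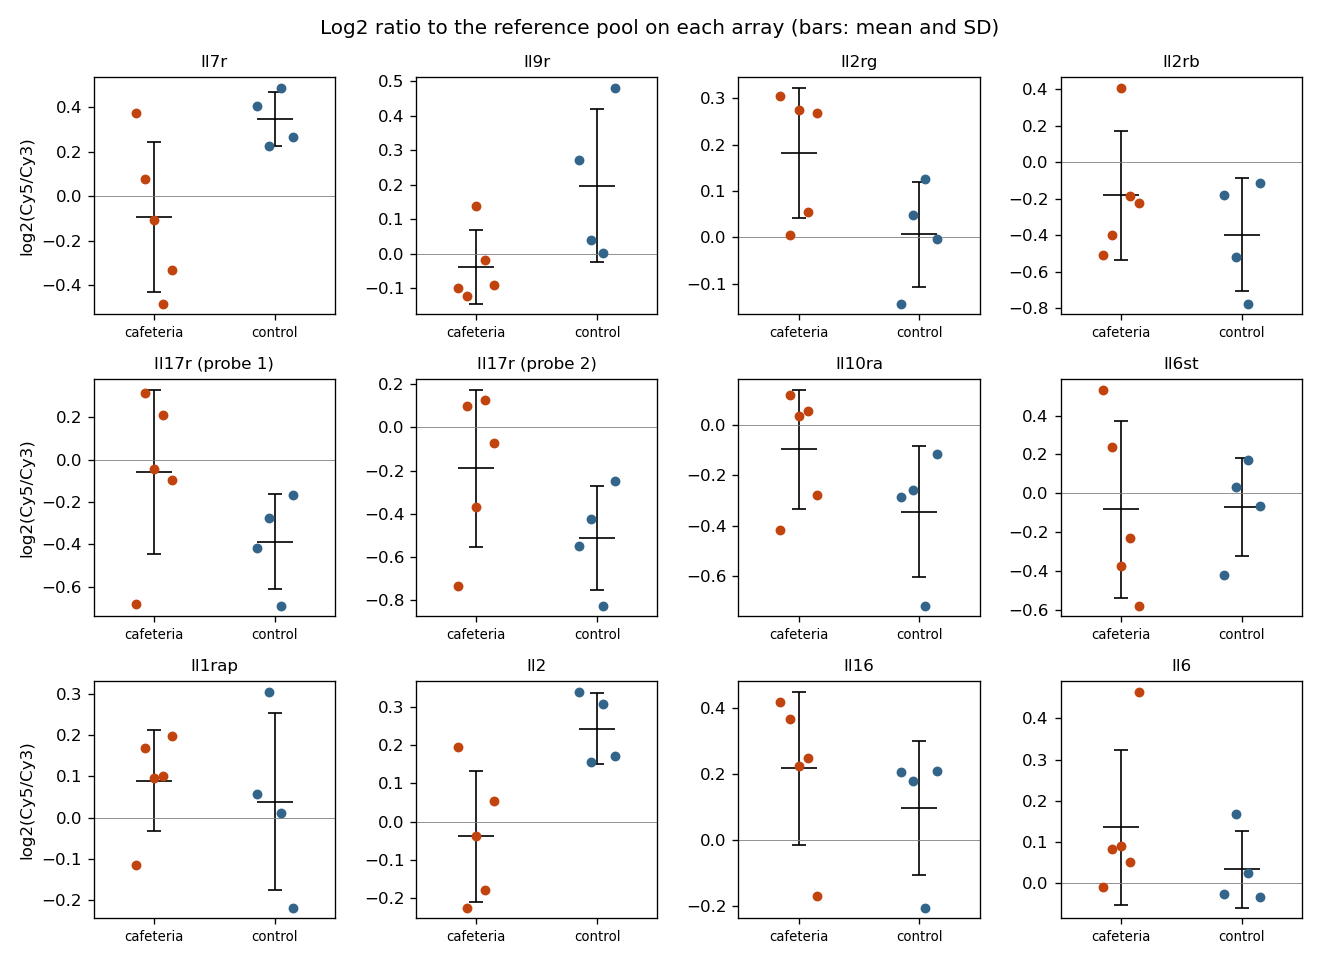
Log2 ratio of each animal to the reference pool (y axis) for the members named with values on each array, cafeteria left and control right; points are arrays (n = 5 and n = 4), and bars show the mean and SD. In Il7r and Il2 cafeteria 1 lies among the controls while the other 4 cafeteria arrays lie lower, and in Il9r cafeteria 7 does so; in the other panels more arrays overlap.

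The other chains of the common gamma chain receptors did not share one direction. Il2rg, the common chain itself, was 0.31, 0.0050, 0.28, 0.05 and 0.27 on cafeteria arrays 1, 4, 7, 10 and 13, against -0.14, 0.05, 0.13 and -0.0043 on control arrays 1, 4, 7 and 13. Cafeteria 1, 7 and 13 lay above all controls and cafeteria 4 and 10 among them, for a log2 fold change of 0.18 (SE 0.09, limma adjusted p = 0.949) and within-slide differences of 0.45 and 0.06. Il9r, the receptor chain for Il9, was -0.10, -0.12, 0.14, -0.02 and -0.09 on cafeteria arrays 1, 4, 7, 10 and 13, against 0.27, 0.04, 0.0016 and 0.48 on control arrays 1, 4, 7 and 13. Only cafeteria 7 lay within the control range, for a log2 fold change of -0.24 (SE 0.11, limma unadjusted p = 0.0516, adjusted p = 0.879), and of -0.14 without control 13. Within slides 3 and 5 it was -0.37 and -0.50, and -0.43 with slide as a block (limma unadjusted p = 0.0266, adjusted p = 1). By the software's own log ratio it came to -0.45, and to -0.15 with the background model fitted on all spots.

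Il2rb, the chain shared by the receptors of Il2 and Il15 and abundant on NK cells, was -0.51, -0.40, 0.41, -0.19 and -0.22 on cafeteria arrays 1, 4, 7, 10 and 13. On control arrays 1, 4, 7 and 13 it was -0.18, -0.52, -0.77 and -0.11. Cafeteria 7 was the highest array and the other 8 overlapped. The log2 fold change was 0.22 (SE 0.19, limma adjusted p = 0.984), but 0.07 when cafeteria 7 was left out and -0.20 in the fit blocked on slide, and it was -0.32 and -0.07 within slides 3 and 5. The cytotoxic T and NK cell markers were highest on the same array: their mean log2 ratio was -0.24, -0.18, 0.65, 0.0016 and 0.24 on cafeteria arrays 1, 4, 7, 10 and 13, against -0.16, -0.43, -0.31 and -0.09 on control arrays 1, 4, 7 and 13. All 7 markers had an estimate above 0 (median 0.31), with Nkg7 and Ncr1 at an unadjusted limma p under 0.05 (limma adjusted p = 0.735 and 0.634). Of all probes, 1.9% were higher at that unadjusted p. The summed Cy5 level of the 7 markers ran from 8.10 to 8.89 in cafeteria animals and from 7.99 to 8.37 in control animals.

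Il2rb followed this list across animals (Pearson r = 0.88, exact permutation p = 0.00541, adjusted 0.0217; Spearman rho = 0.83, exact permutation p = 0.00827, adjusted 0.0277). Without cafeteria 7 and 13, r was 0.77 over 7 animals. Il18rap, the accessory chain of the Il18 receptor on NK and T cells, stood at 1.46 on cafeteria 7, while the other cafeteria arrays ran from -0.02 to 0.25 and control arrays from 0.09 to 0.51. Its relation to the list (Pearson r = 0.84, exact permutation p = 0.0398, adjusted 0.0531; Spearman rho = 0.52, exact permutation p = 0.162, adjusted 0.178) rested on those arrays, since r was 0.31 without cafeteria 7 and 13. These relations, too, were chosen after the values were seen and pool both diets, so their p-values give no support. The slides hold at most 2 of these arrays, so no relation could be computed within a slide, and the part of cell number in them was not tested.

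**Figure D4:**
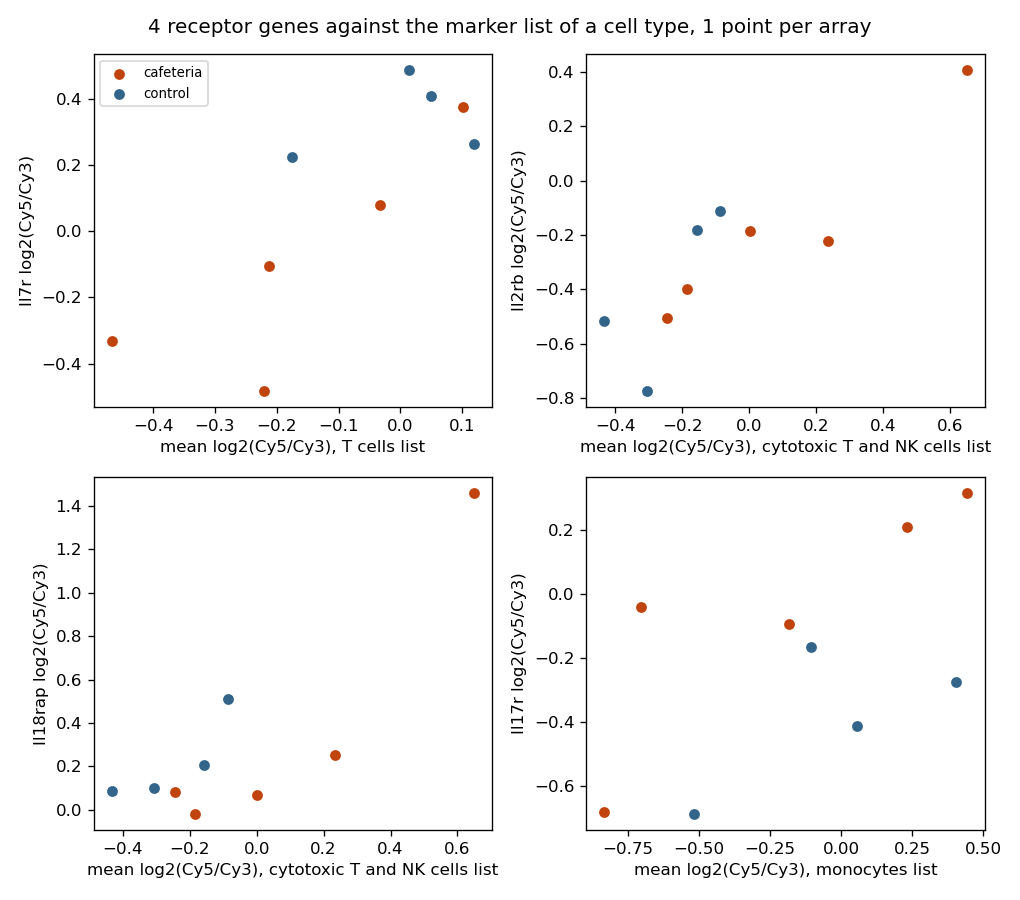
Log2 ratio of 4 receptor genes (y axes) against the mean log2 ratio of the marker list of a cell type (x axes), 1 point per array, orange for cafeteria and blue for control. Il7r is higher where T cell markers are higher (r = 0.80), and Il2rb where markers of cytotoxic T and NK cells are (r = 0.88); in the Il18rap panel the upper right point is cafeteria 7.

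Il17r, the common chain of the Il17 receptors, was read by 2 probes that lie side by side (chr4:156860097-156860156 and chr4:156860026-156860085, plus strand). By the first probe the log2 ratio was -0.68, 0.32, -0.04, 0.21 and -0.09 on cafeteria arrays 1, 4, 7, 10 and 13, against -0.41, -0.28, -0.69 and -0.17 on control arrays 1, 4, 7 and 13. By the second it was -0.74, 0.10, -0.37, 0.13 and -0.07 on the cafeteria arrays, against -0.55, -0.42, -0.83 and -0.25 on the control arrays. Cafeteria 1 and control 7 were the lowest arrays by both probes, and cafeteria 4 and 10 the highest. The log2 fold changes of 0.33 (SE 0.19, limma adjusted p = 0.965) and 0.32 (SE 0.18, limma adjusted p = 0.962) were about the size of the spread within the cafeteria group (SD 0.39 and 0.36, n = 5). The first probe gave -0.27 within slide 3 and 0.38 within slide 5, and 0.05 in the fit blocked on slide. Without cafeteria 1 the values were 0.48 and 0.46.

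Monocyte markers ran over a wide range in both groups, from -0.83 to 0.44 on cafeteria arrays and from -0.52 to 0.40 on control arrays, as the mean of 6 markers. That mean was -0.83, 0.44, -0.71, 0.23 and -0.18 on cafeteria arrays 1, 4, 7, 10 and 13. On control arrays 1, 4, 7 and 13 it was 0.06, 0.40, -0.52 and -0.11. The relation of the first Il17r probe to them did not pass (Pearson r = 0.60, exact permutation p = 0.0909; Spearman rho = 0.50, exact permutation p = 0.178; r = 0.69 without cafeteria 1 and 7). Il10ra, the private chain of the receptor for the inhibitory Il10, had its lowest values on cafeteria 1 and control 7, as Il17r did. Both genes were highest on cafeteria 4 and 10, with marker means of 0.44 and 0.23. Some arrays did not go with the markers. On cafeteria 7, with a marker mean of -0.71, the first Il17r probe was at -0.04 and Il10ra at 0.04. On control 4, with a marker mean of 0.40, Il10ra was at -0.26. The part of monocyte number in these values was not tested. Il10ra was -0.42, 0.12, 0.04, 0.06 and -0.28 on cafeteria arrays 1, 4, 7, 10 and 13, against -0.29, -0.26, -0.72 and -0.12 on control arrays 1, 4, 7 and 13. The groups overlapped, for a log2 fold change of 0.25 (SE 0.15, limma adjusted p = 0.970), of 0.12 without control 7 and of 0.02 with slide as a block. Within slides 3 and 5 it was -0.13 and 0.17.

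The shared chains Il6st and Il1rap had estimates near 0. Il6st was 0.53, 0.24, -0.37, -0.23 and -0.58 on cafeteria arrays 1, 4, 7, 10 and 13, against -0.42, 0.03, 0.17 and -0.06 on control arrays 1, 4, 7 and 13. The cafeteria animals enclosed the whole control range, so that the estimate of -0.01 (SE 0.22, limma adjusted p = 0.997) has a 95% interval of -0.49 to 0.47, with 0.95 and -0.16 within slides 3 and 5. Il1rap was -0.11, 0.17, 0.10, 0.10 and 0.20 on the cafeteria arrays, against 0.06, 0.30, 0.01 and -0.22 on the control arrays. Its control range enclosed the cafeteria animals (log2 fold change 0.05, SE 0.11, limma adjusted p = 0.988), with -0.17 and 0.32 within slides 3 and 5.

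Of the ligands, Il16 and Il6 had the largest estimates after Il2. Il16 was 0.42, 0.36, 0.22, 0.25 and -0.17 on cafeteria arrays 1, 4, 7, 10 and 13, against 0.21, 0.18, -0.20 and 0.21 on control arrays 1, 4, 7 and 13. Each group had 1 low array, cafeteria 13 and control 7, and the log2 fold change of 0.12 (SE 0.13, limma adjusted p = 0.984) was 0.02 without control 7 and 0.22 without cafeteria 13. Il6 was -0.01, 0.08, 0.09, 0.05 and 0.46 on cafeteria arrays 1, 4, 7, 10 and 13, against -0.03, 0.17, 0.03 and -0.03 on control arrays 1, 4, 7 and 13. Cafeteria 13 stood apart and the other arrays overlapped, with a log2 fold change of 0.10 (SE 0.10, limma adjusted p = 0.984) that was 0.02 without that array. By the software's own log ratio the Il6 estimate was 0.56 (SE 0.40, limma adjusted p = 0.927), and on Cy5 alone 0.56 (SE 0.38, limma adjusted p = 0.988).

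Il6 and Il10 were each spotted 10 times on an array, which shows the spread of a dim probe between spots. The spread below is that of ratios after normexp with an offset of 50, and need not hold on other scales. Of the Il6 spots, 29 of 50 on cafeteria arrays and 15 of 40 on control arrays were well above background, with 10 of 10 on cafeteria 4 and cafeteria 13 and 0 of 10 on cafeteria 1, control 1 and control 13. For Il10 the counts were 28 of 50 on cafeteria arrays and 18 of 40 on control arrays. The median SD over the spots of 1 array was 0.11 for Il6 and 0.12 for Il10 in log2 units. Between arrays the SD of Il6 was 0.19 in cafeteria and 0.09 in control animals, and that of Il10 was 0.08 in cafeteria and 0.03 in control animals. On cafeteria 13 the Il6 ratio of 0.46 had an SD of 0.08 over its 10 spots. Spots of 1 array share its RNA and are not replicates of the diet.

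Il1rl1 and Il7 were seen mainly on control arrays. Il1rl1 was well above background on 1 of 5 cafeteria arrays and 4 of 4 control arrays, by the probe at chr9:39617225-39617284. Its log2 ratio ran from -0.15 to 0.22 in cafeteria animals and from 0.07 to 0.39 in control animals, which overlapped, for a log2 fold change of -0.19 (SE 0.10, limma unadjusted p = 0.0861, adjusted p = 0.952). On Cy5 alone, with no reference at background in the ratio, the estimate was -1.26 (SE 0.36), and by the scanner software's ratio it was -1.09 (SE 0.59). The limma adjusted p of these was 0.733 and 0.893. The gene was singled out after its values were seen and passed the filter through the control arrays, so these values describe it and give no support. A second probe, which the array annotates to the Fit-1M transcript, was detected on 0 arrays. Il7 was detected on control 1, 4 and 7, and on 0 of 5 cafeteria arrays. On the software's processed Cy5 signal scaled to the 75th percentile, its measured means were -5.71 in cafeteria and -4.65 in control animals (log2). The control mean includes an array on which Il7 was not detected, and the cafeteria mean rests on undetected signals only. Il7, too, was singled out after its values were seen, by its detection on control arrays alone. The means therefore describe it and give no support. Il7 did not pass the filter and has no test in the main fit.

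Genes that carry interleukin signals inside the cell were read from a list of Janus kinases, STAT proteins, their inhibitors, and the Myd88 and Irak route. Of the 36 listed, 34 were measured and passed the filter; 18 had an estimate above 0 and 16 below (median 0.0079), by limma 0 had an adjusted p under 0.05, and 1 of 34 an unadjusted p under 0.05, against 5.68% of all probes. That gene, singled out by its p, was Jak1, the Janus kinase used by the common gamma chain, gp130 and Il10 receptors. By its brighter probe Jak1 was 0.13, 0.23, -0.04, -0.37 and -0.50 on cafeteria arrays 1, 4, 7, 10 and 13, against 0.55, 0.49, 0.49 and 0.27 on control arrays 1, 4, 7 and 13. The cafeteria animals all lay below the control animals, a separation in either direction that 2.01% of all probes had, for a log2 fold change of -0.56 (SE 0.15, limma unadjusted p = 0.00348, adjusted p = 0.537), with -0.42 and -0.64 within slides 3 and 5. A second Jak1 probe did not overlap between the groups either (log2 fold change -0.91, SE 0.18, limma unadjusted p = 0.000423, adjusted p = 0.392). Of 19 other cytokine and cytokine receptor genes, 15 were measured and 12 passed the filter; 7 had an estimate above 0 and 5 below, and 0 had an unadjusted p under 0.05 (0 by limma after adjustment).

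Where a gene had several probes, they did not always read alike. Il18rap was detected on 9 arrays by 1 probe and on 0 by the other, and so was Il22ra2. Il4 was detected on 9 arrays by 1 probe and on 1 array by another of 60 bases that shares 39 bases with it (chr10:39074590-39074649 and chr10:39074611-39074670, minus strand). The 4 probes of Il13ra1 were detected on 9, 7, 6 and 6 arrays, with log2 fold changes of -0.04, -0.05, -0.18 and 0.02. The third of these was -1.23 (SE 0.50, limma unadjusted p = 0.0343, adjusted p = 0.778) by the software's own log ratio and -0.73 (SE 0.30, limma unadjusted p = 0.0346, adjusted p = 0.859) on Cy5 alone, and the scanner flags put it above background on 3 of 5 cafeteria and 3 of 4 control arrays. The files place them on chromosome 11, which is not the chromosome of the RefSeq entry that their accession names, so their position is uncertain. Both Il2ra probes were detected on 9 arrays, with -0.05 and -0.03.

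The members not yet given values were Il18bp, which neutralises Il18, and 18 receptor and ligand genes. Il18bp had a log2 fold change of 0.15 (SE 0.08, limma adjusted p = 0.962), and 0.32 (SE 0.12, limma unadjusted p = 0.0254, adjusted p = 0.823) on Cy5 alone. On the scale used here, the receptor genes Il3ra, Il4ra, Il6ra, Il11ra1, Il12rb2, Il17rc, Il17re, Il18r1, Il21r, Il22ra2 and Il27ra ran from -0.04 to 0.07. The ligand genes Il4, Il10, Il12a, Il15, Il17b, Il24 and Il1f8 ran from -0.10 to 0.07. By the software's own log ratio the ranges were wider. They were -0.25 (Il18r1) to 0.24 (Il11ra1) for these receptors, and -0.48 (Il12a, limma adjusted p = 0.893) to 0.35 (Il24, limma adjusted p = 0.930) for these ligands.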

How the data were processed

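The scanner files deposited by the authors hold, per the file headers, spot and local background intensities of both dyes from Feature Extraction 9.5.1.1, unnormalized, its log10 ratio of Cy5 over Cy3 after background subtraction and dye normalization, and a score or flag per spot for signal above background. A second table deposited by the authors gives log2 values for 21466 of its 45220 spots. They followed Cy5 (rank correlation 0.993 to 0.999), with medians of 9.40 to 9.69 per array; their centring, and how the reference entered them, are unknown. Probe positions are on rn4, per the file headers, which give no exon or untranslated region.

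Background was corrected by normexp (offset 50), ratios were normalized by loess within each array without control spots, non-uniform and population outlier spots were left out, and spots of a probe were averaged; a repeated probe was detected where at least 0.5 of its spots were. On control 4 and cafeteria 4 normexp was spoiled by a few spots far darker than their own background, which left ratios nearly flat (median absolute deviation 0.035, against 0.11 to 0.22 on the other arrays). Spots over 20 units below their background, 0 to 13 per array, were therefore left out, after which it was 0.15 to 0.24. This repair was chosen after seeing the data. limma 3.58.1 with statmod 1.5.0 in R 4.3.3 (with the package data.table, version 1.17.8) compared 5 cafeteria with 4 control arrays (7 residual, 3.41 prior degrees of freedom), adjusted by Benjamini-Hochberg over 25808 probes with a threshold of 0.05, after a test on simulated data. Exact permutation tests (two-sided) used scipy 1.17.1 with numpy 2.4.6 and pandas 2.3.3 in Python 3.11.15, and figures matplotlib 3.10.9.

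The number of arrays, 1 per animal, limits the precision. All 55 member genes matched a RefSeq gene name (assembly GRCr8), 37 by accession. Members and gene lists were chosen with earlier results of these data known. Members were named with values on each array by a rule: an unadjusted p under 0.05 or groups that do not overlap, the 4 receptor and 3 ligand genes of largest change, and shared chains; Il10rb is no member here. Il1rl1, Il7, Il18rap, Il13ra1 and Il18bp were named after their values were seen. Same-numbered animals were checked for pairing: their deviations from the group means correlated by -0.06, 0.03, 0.13 and -0.18, so they were not paired.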

Additional observations from a re-analysis of the deposited data

Results flagged for a closer look

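Each member probe was searched in each group for 1 array that stood far from the rest (gap over the group's range above Dixon's 95% critical value). Of 78 such searches 7 found one, and chance gives about 1 in 20.

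In cafeteria animals, Il18rap was 1.46 on cafeteria 7, while the others ran from -0.02 to 0.25. Il6 was 0.46 on cafeteria 13, while the others ran from -0.01 to 0.09. Il11ra1 was -0.052 on cafeteria 1, while the others ran from 0.09 to 0.14. In control animals, control 7 was low for Il16 (-0.20, the others 0.18 to 0.21) and for Il21r (-0.66, the others -0.21 to -0.12). Il4 was -0.071 on control 4, while the others ran from 0.18 to 0.23. Il1rl1 was 0.39 on control 13, while the others ran from 0.07 to 0.11.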

How the results depend on the processing

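No member passed the adjusted threshold under any of the 23 alternatives to the fit (lowest limma adjusted p of a member 0.258, without cafeteria 1). The count of member probes at an unadjusted p under 0.05 was 2 of 39, against 5.68% of all probes. It was 1 of 39 (Il7r) with normexp on all spots, against 4.4%, and 1 of 39 (Il9r) with slide as a block, against 3.24%. Median centring gave 5 of 39 (3 lower, 2 higher), against 9.52%, and Cy5 alone 4 of 39 (3 lower, 1 higher), against 5.56%. Without the filter the count was 4 of 64 (4 lower), against 4.87%, and with array weights 4 of 39 (4 lower), against 6.48%. Leaving out each array gave 2 to 5 of 39, against 4.58% to 7.65%, with 5 (2 lower, 3 higher) without cafeteria 1. With the authors' values it was 3 of 25 (1 lower, 2 higher), against 12.8%. After these were centred it was 2 of 25 (both lower), against 6.33%. Uncentred they shift the median of all probes by 0.13. Over all probes, 0 passed in the fit used here, and 2 with normexp on all spots, without control 1 or without control 13. Unadjusted p-values under 0.05 numbered 1467 of 25808 probes in the fit used here. The number was 2456 of 25808 with median centring, 2572 of 20164 with the authors' values and 835 of 25808 with slide as a block.

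The median over receptor genes was 0.067 with median centring, 0.061 with Cy5 alone, 0.15 with the authors' values, -0.035 with slide as a block and -0.036 without control 4 and cafeteria 4; leaving out each array gave 0.0026 to 0.046. The median over ligand genes was -0.10 with the authors' values centred, -0.038 for probes detected on all arrays, and -0.049 (without cafeteria 4) to 0.039 when each array was left out. Detected ligand genes numbered 6 on all 9 arrays, 16 by the scanner software's significance flag and 6 in the reference channel, and 9 to 10 when each array was left out. For receptor genes these counts were 21, 25 and 21, and 23 when each array was left out. By the significance flag the 2 classes were thus closer, with 25 of 32 receptor genes and 16 of 22 ligand genes.

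Of 271 values of named members under alternatives, 14 had the opposite sign to the estimate used and 0 gained an adjusted p under 0.05. Il2rb was -0.20 with slide as a block, and Il1rap ran from -0.035 (without control 13) to 0.14 when each array was left out. Il6st, with an estimate of -0.01, was 0.0049 with the scanner software's ratio, 0.10 with median centring, 0.15 with Cy5 alone, 0.15 and 0.027 with the authors' values before and after centring, 0.39 with slide as a block, 0.024 with a replicate block, and -0.17 to 0.11 when each array was left out. Il7r ran from -0.56 without cafeteria 1 to -0.25 with the authors' values (-0.37 centred), with an unadjusted p under 0.05 in 18 of 24 fits, and Il2 from -0.73 to -0.17, in 22 of 24. The cause of these differences was not tested.

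With the animals' numbers as a replicate block, Il7r was -0.34 and Il2 -0.25 (limma adjusted p = 0.908 and 0.909), and the same 2 members had an unadjusted p under 0.05. The numbers are shared labels only, and this fit takes no difference from cafeteria 10, which has no control of its number. Dim probes (Il6, Il10, Il1rl1, Il7) have signals near the background, and sizes can depend on the scale: Il6 was 0.10, and 0.56 by the scanner software's ratio.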
